A study of Mus musculus with 24 samples.

Results

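The genes described here encode acute-phase proteins, the lipocalin Lcn2 and the cytokine Il6. They are Lcn2, Saa1, Saa2, Saa3, Hp, Orm1, Orm2, Serpina3n, Cp and Il6, 10 of the 37991 gene identifiers in the count table. The list was drawn up by name and not from measured values, though with earlier results of these data known. Each name was matched to 1 Ensembl identifier. RNA-seq had been run on inguinal subcutaneous fat pads of 24 female mice killed at 26 weeks of age, with 1 library per mouse. The mice belonged to 4 inbred strains: C57BL/6J, widely used in laboratories, the obesity-prone NZO/HiLtJ, and the wild-derived CAST/EiJ and WSB/EiJ. In each strain 3 mice ate a standard diet (17% of its energy as fat) and 3 ate a diet with 45% of energy from fat and 34% sucrose by weight, called the high-fat diet below. Feeding of the 2 diets began at 4 weeks of age. No allele or agent other than strain and diet is given in the labels, and every library carries the same lane label.

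The genes differed in where they were high and low. Leaving aside 1 CAST/EiJ library described below, Saa3, Hp and Serpina3n were lowest in WSB/EiJ, Orm2 was lowest in NZO/HiLtJ, and Cp was higher in WSB/EiJ than in CAST/EiJ or NZO/HiLtJ. Lcn2 was at 5.70 CPM (counts scaled to library size, defined below) or lower in 21 of the libraries and at 55.7, 303 and 2751 CPM in the other 3, all of them from mice on the high-fat diet. Saa1, Saa2 and Il6 were close to undetected everywhere.

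The acute-phase response is the change in plasma proteins that follows infection or injury. IL-1, TNF and IL-6 drive it, mainly in the liver, through NF-kB, C/EBP and STAT3. Fat is a further source of several of these proteins: adipocytes make haptoglobin, orosomucoid and SAA3, and Lcn2 is also made by neutrophils, macrophages and many epithelia.

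The sequences before the start sites of Lcn2 and the 3 Saa genes are given because these members of the response differed most in how far they were detected. Each is the 250 bases before the start site, 5′ to 3′ on the gene's strand, from RefSeq on GRCm38.p6. Capitals mark matches to the C/EBP motif TTGCNNAA or to the NF-kB motif.
Lcn2, chr2:32387740-32387989, minus strand: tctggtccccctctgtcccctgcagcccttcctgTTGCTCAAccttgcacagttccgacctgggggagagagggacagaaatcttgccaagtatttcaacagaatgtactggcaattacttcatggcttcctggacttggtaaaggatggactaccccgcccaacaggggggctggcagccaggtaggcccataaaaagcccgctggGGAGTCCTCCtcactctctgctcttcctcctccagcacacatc
Saa3, chr7:46715677-46715926, minus strand: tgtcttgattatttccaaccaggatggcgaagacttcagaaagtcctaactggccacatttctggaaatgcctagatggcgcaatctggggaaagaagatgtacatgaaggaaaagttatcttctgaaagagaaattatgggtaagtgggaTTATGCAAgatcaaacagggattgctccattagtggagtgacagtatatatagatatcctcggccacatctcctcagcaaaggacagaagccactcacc
Saa1, chr7:46742981-46743230, minus strand: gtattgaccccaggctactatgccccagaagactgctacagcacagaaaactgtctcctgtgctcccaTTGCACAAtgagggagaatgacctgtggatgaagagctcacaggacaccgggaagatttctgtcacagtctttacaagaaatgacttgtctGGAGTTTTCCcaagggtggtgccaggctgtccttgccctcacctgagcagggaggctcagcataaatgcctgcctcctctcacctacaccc
Saa2, chr7:46751583-46751832, plus strand: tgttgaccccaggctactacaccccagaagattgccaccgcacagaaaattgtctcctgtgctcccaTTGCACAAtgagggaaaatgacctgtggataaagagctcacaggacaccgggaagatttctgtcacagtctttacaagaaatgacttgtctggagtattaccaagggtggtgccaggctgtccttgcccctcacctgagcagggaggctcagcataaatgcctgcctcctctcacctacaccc
The Lcn2 window holds a C/EBP match from position -216 and an NF-kB match from -43, counted from the start site. In Saa3 the C/EBP match starts at -99 and no NF-kB match was found. Saa1 and Saa2 are near copies, with 287 of 300 bases identical in windows reaching 50 bases past the start site, against 180 for Saa1 and Saa3. Both have the C/EBP match, at -182 and -183, and the NF-kB match, at -91, was in Saa1 alone of the pair. Windows were at hand for 8 of the 10 genes, Hp and Orm1 having none. The C/EBP motif was found on either strand in 7 of these 8 genes, Serpina3n being the exception, and in 10.8% of 32851 mouse windows of 300 bases. Cp had 2 windows and a C/EBP match in the second alone, so the count is by gene and the 10.8% by window. The NF-kB motif was found in Lcn2, Saa1 and Il6 and in 11.2% of all windows. The STAT motif TTCNNNGAA was in no member's window and in 8.3% of all windows. No C/EBP and NF-kB matches overlapped. The windows are those of the C57BL/6J reference, and sequence differences between the strains were not analysed here.

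Library totals ran from 47651641 to 84009032 counts. Levels are given in CPM, counts per 1000000 counts of the library after trimmed-mean scaling. Adipoq, the adipocyte hormone adiponectin, lay between 599 and 2750 CPM in 23 libraries. CAST/EiJ high-fat replicate 1 had 4.09 CPM. In that library 10 adipocyte markers summed to 205.9 CPM, against 9458 to 35979 CPM in the others. Its 10 epithelial markers summed to 1443 CPM with none at 0, and its Epcam, an epithelial surface protein, was 151 CPM. In the WSB/EiJ high-fat group the epithelial sums were 313, 533 and 1124 CPM with none of the 10 at 0, and in the other 20 libraries 10.8 to 134 CPM with at most 2 of the 10 at 0. Since the CAST/EiJ library was this low in adipocyte markers though labelled as fat, every test was run on all 24 libraries and again on the 23 others. Its tissue was not checked further. A call is a Benjamini-Hochberg adjusted p below 0.05 over all genes tested, from the edgeR quasi-likelihood F test. Differences are log2 ± standard error, here and in the figures the size of the difference over the square root of its F statistic. Of the 10 genes, 7 passed the filter on low counts. Saa1, Saa2 and Il6 did not.

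Lcn2 encodes lipocalin-2, which binds the iron carriers of bacteria and is released by inflamed tissue. In C57BL/6J mice it stood at 0.458, 1.75 and 0.886 CPM on the standard diet and at 2.63, 1.10 and 0.829 CPM when fed the high-fat diet. NZO/HiLtJ mice had 3.14, 4.22 and 4.18 CPM on the standard diet and 4.49, 5.70 and 2.70 CPM when fed the high-fat diet. In both strains the diets overlapped. CAST/EiJ mice had 2.24, 2.81 and 1.46 CPM on the standard diet and 2751, 4.07 and 3.13 CPM when fed the high-fat diet, so that 1 library made the group mean. WSB/EiJ mice had 1.24, 1.31 and 3.78 CPM on the standard diet and 55.7, 303 and 0.781 CPM when fed the high-fat diet. Here 2 of 3 high-fat mice were high, and the third was below every WSB/EiJ mouse on the standard diet.

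Over all libraries Lcn2 rose on the high-fat diet in CAST/EiJ by 8.73 ± 2.21 (adjusted p = 0.042), in WSB/EiJ by 5.82 ± 1.95 (adjusted p = 0.0415) and on average over the strains by 3.82 ± 0.90 (adjusted p = 0.00854). Without CAST/EiJ high-fat replicate 1 the CAST/EiJ difference was 0.72 ± 1.15 (adjusted p = 0.87). The WSB/EiJ difference was then 5.81 ± 1.22 (adjusted p = 0.00178) and the average 1.82 ± 0.54 (adjusted p = 0.0198). In fits of a single strain's libraries neither rise was a call, at 8.705 in CAST/EiJ (adjusted p = 0.571) and 5.885 in WSB/EiJ (adjusted p = 0.102). With each library left out in turn the average was a call in all 24 fits. With the 6 libraries that had 5 CPM of Epcam or more left out together, no WSB/EiJ high-fat mouse remained, and the average over the other 3 strains was 0.26 (adjusted p = 0.532). The CAST/EiJ rise was a call in 7 of the 24, with adjusted p from 0.0071 to 0.87. Those 7 left out C57BL/6J high-fat replicate 1 or 3, CAST/EiJ high-fat replicate 2 or 3, WSB/EiJ standard replicate 3, or WSB/EiJ high-fat replicate 2 or 3. The WSB/EiJ rise was a call in 11 of the 24, with adjusted p from 0.00178 to 0.188. It was lost without C57BL/6J standard replicate 1 or 3, any NZO/HiLtJ library, any WSB/EiJ standard library, CAST/EiJ standard replicate 3 or WSB/EiJ high-fat replicate 2, and its size over these fits was 3.71 to 6.55.

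Lcn2 was high only where Epcam was. Epcam was 151 CPM beside 2751 CPM of Lcn2 in CAST/EiJ high-fat replicate 1, 51.7 CPM beside 303 CPM in WSB/EiJ high-fat replicate 2, and 30.7 CPM beside 55.7 CPM in WSB/EiJ high-fat replicate 1. WSB/EiJ high-fat replicate 3 had 11.6 CPM of Epcam and the highest epithelial sum of its group, 1124 CPM, with 0.781 CPM of Lcn2. C57BL/6J high-fat replicate 1 had 10.6 CPM of Epcam and 2.63 CPM of Lcn2, and WSB/EiJ standard replicate 3 had 6.06 and 3.78 CPM. All other libraries had 2.86 CPM of Epcam or less. Ltf, the secreted iron-binding protein lactoferrin, chosen after its values were seen, was 1166, 18.8 and 4.39 CPM in the 3 libraries high in Lcn2, and 3.57 CPM or less in the others. The neutrophil markers were not uniform. They summed to 18.9 CPM in CAST/EiJ high-fat replicate 1, with 3 of 10 at 0, and to 7.68 to 10.2 CPM in the WSB/EiJ high-fat group, against 7.55 to 39.9 CPM over all libraries. S100a8, an abundant neutrophil calcium-binding protein, was 0.35 CPM in that CAST/EiJ library and at most 0.0535 CPM in the WSB/EiJ high-fat group. Ly6g, a neutrophil surface protein, had 22, 7 and 6 counts in CAST/EiJ high-fat replicate 1 and WSB/EiJ high-fat replicates 1 and 2, the 3 libraries high in Lcn2, and at most 2 counts in the others. Retnlg, another of the 10, was highest in that CAST/EiJ library, at 5.56 CPM, and next in WSB/EiJ high-fat replicate 1, at 3.36 CPM, but 0.701 CPM in replicate 2. The parts of epithelial and neutrophil RNA in the Lcn2 result were not tested. In fat pads, which hold many cell types, fewer cells of a type and less RNA per cell cannot be told apart.

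**Figure D1:**
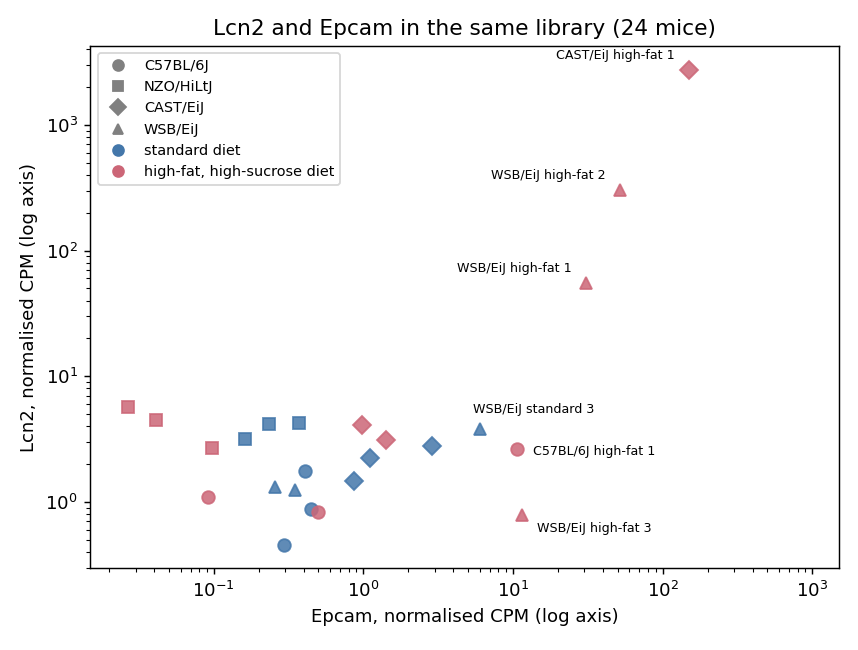
Lcn2 against Epcam in each of the 24 libraries, in CPM on log axes, with shape for the strain and colour for the diet. The 3 libraries with Lcn2 at 55.7 CPM or more are the 3 with Epcam at 30.7 CPM or more, and the 3 with Epcam from 6.06 to 11.6 CPM have Lcn2 from 0.781 to 3.78 CPM.

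Between strains, Lcn2 was higher in WSB/EiJ than in C57BL/6J by 3.66 ± 1.27 (adjusted p = 0.037), and by 3.67 ± 0.80 without the CAST/EiJ library (adjusted p = 0.00149). This call held in 16 of 24 fits with 1 library left out, with adjusted p up to 0.117, and was lost without any C57BL/6J library, WSB/EiJ standard replicate 3 or WSB/EiJ high-fat replicate 2. The call of CAST/EiJ above C57BL/6J, 5.15 ± 1.35 (adjusted p = 0.00548), came down to 1.16 ± 0.79 (adjusted p = 0.241) without the CAST/EiJ library. NZO/HiLtJ below CAST/EiJ, -3.46 ± 1.24 (adjusted p = 0.0267), turned to 0.54 ± 0.78 (adjusted p = 0.581). That call was also lost without NZO/HiLtJ standard replicate 1, 2 or 3 or high-fat replicate 1 or 3. CAST/EiJ minus WSB/EiJ went from 1.49 ± 1.16 (adjusted p = 0.346) to -2.51 ± 0.83 (adjusted p = 0.019). NZO/HiLtJ minus C57BL/6J was a call in neither fit, at 1.692 ± 1.191 (adjusted p = 0.341) and 1.697 ± 0.7543 (adjusted p = 0.0916). With the 6 libraries at 5 CPM of Epcam or more left out, it was a call at 2.032 (adjusted p = 0.000141). CAST/EiJ minus C57BL/6J was also a call there, at 1.503 (adjusted p = 0.00112). NZO/HiLtJ minus CAST/EiJ was not, at 0.5293 (adjusted p = 0.122). Here and below, comparisons in the groups of a single diet were made within the fit of all 24 libraries. Their estimate of the spread therefore includes CAST/EiJ high-fat replicate 1 and the other diet. In the standard groups, NZO/HiLtJ minus CAST/EiJ was 0.83 (adjusted p = 0.737) and WSB/EiJ minus C57BL/6J was 1.04 (adjusted p = 0.722).

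Saa3 encodes the serum amyloid A made outside the liver, in fat and macrophages. C57BL/6J mice had 1.05, 1.07 and 1.27 CPM on the standard diet and 2.67, 4.88 and 2.82 CPM when fed the high-fat diet. NZO/HiLtJ mice had 3.41, 1.74 and 2.36 CPM on the standard diet and 6.49, 6.45 and 4.38 CPM when fed the high-fat diet. In both strains every high-fat mouse was above every standard-diet mouse. CAST/EiJ mice had 0.852, 3.37 and 3.15 CPM on the standard diet and 0.633, 4.52 and 6.73 CPM when fed the high-fat diet. The 0.633 CPM is the library low in Adipoq, and the other 2 high-fat mice were above all 3 on the standard diet. WSB/EiJ mice had 0.262, 0.413 and 0.508 CPM on the standard diet and 0.201, 0.0674 and 0.119 CPM when fed the high-fat diet. Their order was the opposite one, with every high-fat mouse below every standard-diet mouse, on counts as low as 5 a library.

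The strain difference in Saa3 was a call with and without the CAST/EiJ library. WSB/EiJ was below C57BL/6J by -3.12 ± 0.47 (adjusted p = 8.19e-05), NZO/HiLtJ was above WSB/EiJ by 4.06 ± 0.49 (adjusted p = 3.27e-06), and CAST/EiJ was above WSB/EiJ by 3.77 ± 0.48 (adjusted p = 5.8e-06). These 3 were calls in all 24 fits that left out 1 library. By diet, WSB/EiJ minus C57BL/6J was -1.51 (adjusted p = 0.0952), no call, in the standard groups alone and -4.72 (adjusted p = 0.000232) in the high-fat groups alone. NZO/HiLtJ minus WSB/EiJ was 2.66 (adjusted p = 0.00504) and 5.46, and CAST/EiJ minus WSB/EiJ 2.63 (adjusted p = 0.00571) and 4.92. The diet differences were 1.61 ± 0.61 in C57BL/6J (adjusted p = 1), 1.21 ± 0.60 in NZO/HiLtJ (adjusted p = 0.353) and -1.60 ± 0.66 in WSB/EiJ (adjusted p = 0.0889). Without the CAST/EiJ library the fall in WSB/EiJ was a call at -1.60 ± 0.49 (adjusted p = 0.0165). The differences of 1.61 ± 0.44 in C57BL/6J (adjusted p = 0.288) and 1.21 ± 0.44 in NZO/HiLtJ (adjusted p = 0.0841) were not. In a fit of the 6 NZO/HiLtJ libraries alone the 1.21 was a call (adjusted p = 0.0146). In a fit of the 6 WSB/EiJ libraries alone the fall was -1.56 (adjusted p = 0.0855), no call. With the 6 libraries at 5 CPM of Epcam or more left out, the rise of Saa3 averaged over C57BL/6J, NZO/HiLtJ and CAST/EiJ was a call at 1.385 (adjusted p = 0.0031). The 10 macrophage markers, none at 0 in any library, summed to 390 to 551 CPM in WSB/EiJ, 483 to 817 CPM in CAST/EiJ, 771 to 1197 CPM in C57BL/6J and 843 to 3473 CPM in NZO/HiLtJ. Saa3 was low with them in WSB/EiJ and high with them in NZO/HiLtJ, but not in CAST/EiJ: on the standard diet CAST/EiJ had a mean sum of 604 CPM and Saa3 of 2.46 CPM, against 851 and 1.13 CPM in C57BL/6J. In WSB/EiJ the adipocyte sums were 24803 to 32771 CPM on the standard diet and 9458 to 14442.5 CPM on the high-fat diet. The epithelial sums there were 35.3 to 73.6 CPM and 313 to 1124 CPM. In NZO/HiLtJ, where Saa3 was higher on the high-fat diet, the adipocyte sums were also lower, 20358 to 21241 CPM and then 12379 to 15149.6 CPM. The part of any of these markers in the Saa3 result was not tested.

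Saa1 and Saa2 encode the serum amyloids that the liver releases in the acute phase. Saa1 had 0 to 11 counts a library, with at least 1 count in 14 of 24, and Saa2 had 0 to 10 counts, with at least 1 in 17. A count of 0 allows up to 3 counts. The highest Saa1 counts were 11 in C57BL/6J high-fat replicate 1, 10 and 8 in NZO/HiLtJ standard replicates 1 and 3, and 7 in CAST/EiJ high-fat replicate 2. Saa2 was highest in CAST/EiJ high-fat replicate 2, with 10 counts, and C57BL/6J high-fat replicate 1, with 9. No group stood clear of the next in either gene. With the filter removed neither was a call in any of the 13 comparisons, the smallest adjusted p being 0.198 for Saa1 by diet in CAST/EiJ. The transcripts of Saa1, Saa2 and Saa3 share no stretch of 100 bases, the read length.

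**Figure D2:**
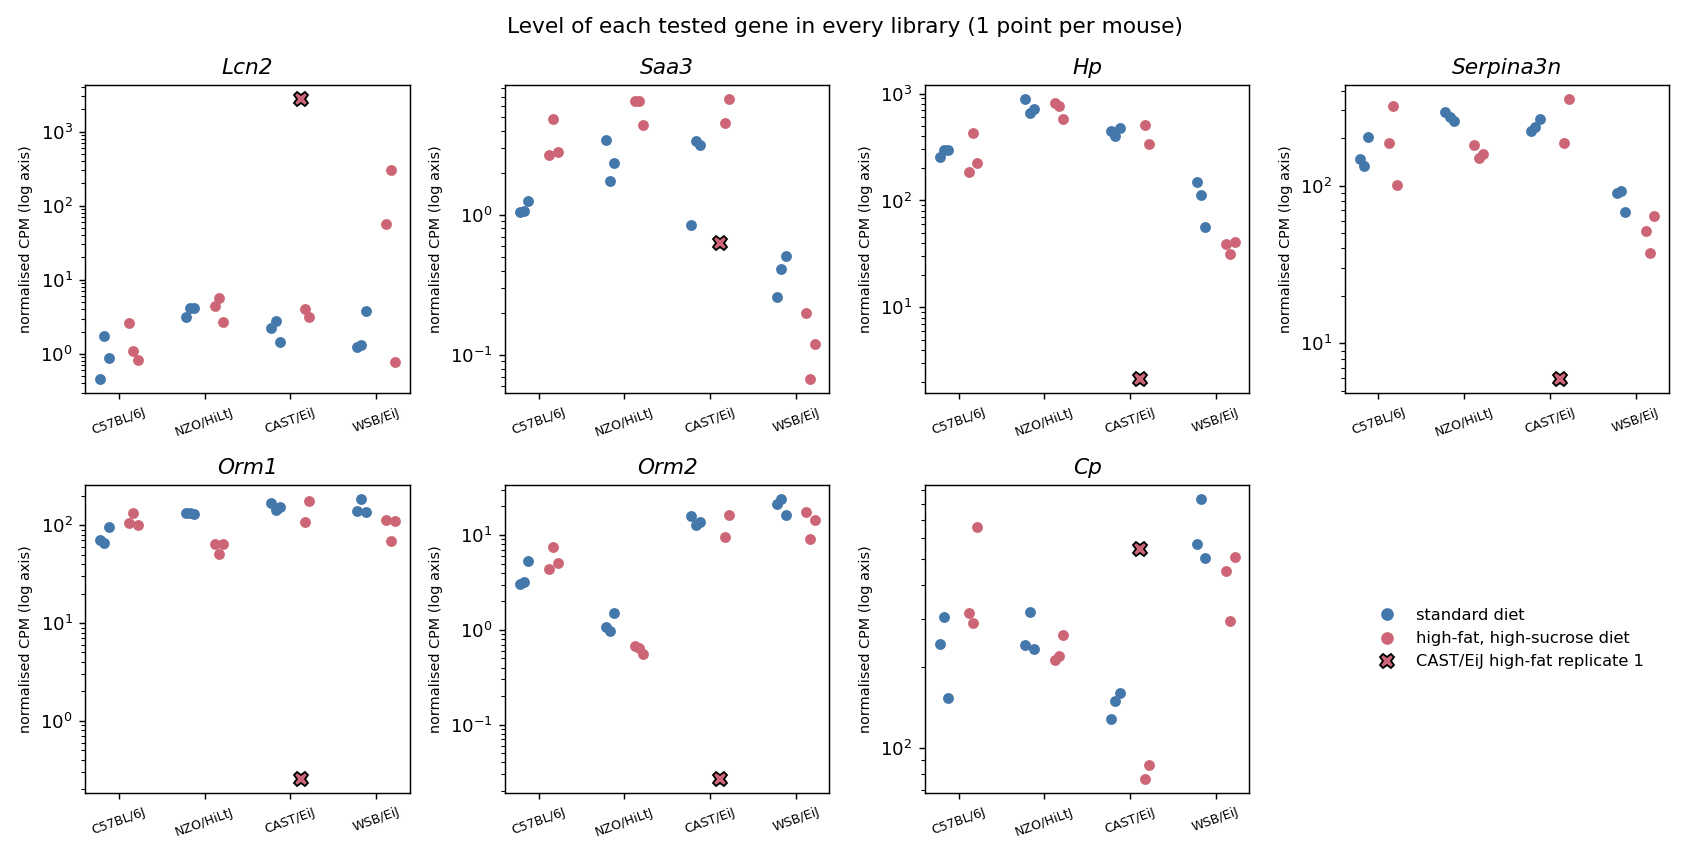
Levels in CPM on log axes for the 7 tested genes, 1 point per mouse, by strain and diet, with the CAST/EiJ library low in Adipoq as a cross. That library is the lowest of all 24 for Hp, Serpina3n, Orm1 and Orm2 and the highest for Lcn2.

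Hp encodes haptoglobin, which binds free haemoglobin in plasma and is made by adipocytes as well as liver. C57BL/6J mice had 256, 299 and 299 CPM on the standard diet and 186, 427 and 222 CPM when fed the high-fat diet. In NZO/HiLtJ the levels were 889.7, 658 and 714 CPM on the standard diet and 811, 763 and 575 CPM when fed the high-fat diet. Every NZO/HiLtJ mouse was above every mouse of the other strains, and the diets overlapped. In CAST/EiJ they were 451, 401 and 479.6 CPM on the standard diet and 2.14, 503 and 339.7 CPM when fed the high-fat diet. WSB/EiJ had 148, 112 and 57 CPM on the standard diet and 38.9, 31.8 and 40.9 CPM when fed the high-fat diet. All WSB/EiJ mice were below all other mice except the 2.14 CPM library, and their 2 diets did not overlap.

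Hp was lower in WSB/EiJ than in C57BL/6J by -2.17 ± 0.62 (adjusted p = 0.0138), than in NZO/HiLtJ, NZO/HiLtJ minus WSB/EiJ being 3.55 ± 0.66 (adjusted p = 0.00029), and than in CAST/EiJ, with 2.495 ± 0.63 (adjusted p = 0.00446). All 3 were calls in each of the 24 fits that left out 1 library. In the standard groups alone the first was -1.43 (adjusted p = 0.258) and the third 2.07 (adjusted p = 0.0996), neither a call, and all 3 were calls in the high-fat groups alone. The excess in NZO/HiLtJ over C57BL/6J was 1.39 ± 0.61 (adjusted p = 0.109). It was a call without the CAST/EiJ library, at 1.39 ± 0.22 (adjusted p = 9.85e-05). So was the excess over CAST/EiJ, 0.76 ± 0.23 (adjusted p = 0.00899), and that of CAST/EiJ over C57BL/6J, 0.63 ± 0.23 (adjusted p = 0.0284). The high-fat diet lowered Hp in WSB/EiJ in that fit, by -1.51 ± 0.31 (adjusted p = 0.00154), where all 24 libraries gave -1.51 ± 0.86 (adjusted p = 0.209). In a fit of the WSB/EiJ libraries alone that fall was -1.46 (adjusted p = 0.0568), no call. The adipocyte marker sums of WSB/EiJ were 24803 to 32771 CPM on the standard diet and 9458 to 14442.5 CPM on the high-fat diet. Their part in the diet result was not tested.

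Serpina3n encodes a secreted inhibitor of serine proteases that rises with inflammation. C57BL/6J mice had 148, 133 and 203 CPM on the standard diet and 187, 322 and 101 CPM when fed the high-fat diet, with overlap. NZO/HiLtJ mice had 294, 271 and 258 CPM on the standard diet and 182, 149.9 and 160.0 CPM when fed the high-fat diet, without overlap. CAST/EiJ mice had 221, 234 and 265 CPM on the standard diet and 5.94, 187 and 355 CPM when fed the high-fat diet. WSB/EiJ mice had 90.1, 92.1 and 68.1 CPM on the standard diet and 51.9, 37.5 and 63.9 CPM when fed the high-fat diet, again without overlap and below every other mouse but the 5.94 CPM library. WSB/EiJ was thus at the low end, as for Hp.

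Serpina3n was lower in WSB/EiJ than in C57BL/6J by -1.47 ± 0.51 (adjusted p = 0.0363), a call in 15 of 24 fits with 1 library left out. It was lost without C57BL/6J standard replicate 1 or 3, C57BL/6J high-fat replicate 1 or 2, any WSB/EiJ standard library, or WSB/EiJ high-fat replicate 1 or 2, with adjusted p up to 0.106. NZO/HiLtJ minus WSB/EiJ was 1.70 ± 0.51 (adjusted p = 0.0117), a call in all 24. CAST/EiJ minus WSB/EiJ was 1.68 ± 0.51 (adjusted p = 0.0153) and missed the threshold without CAST/EiJ high-fat replicate 3 (adjusted p = 0.0645). Without the library low in Adipoq the 3 values were -1.46 ± 0.23 (adjusted p = 6.63e-05), 1.69 ± 0.23 (adjusted p = 8.03e-06) and 1.97 ± 0.24 (adjusted p = 2.66e-06). Within the fit of all 24 libraries, none of the 3 was a call in the standard or the high-fat groups alone, with adjusted p from 0.0669 to 0.381. No diet difference was a call in either fit over the groups. In NZO/HiLtJ it was -0.74 ± 0.71 over all libraries (adjusted p = 0.701), -0.74 ± 0.31 without the CAST/EiJ library (adjusted p = 0.149), and a call in the fit of the strain's 6 libraries alone (adjusted p = 0.00199).

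Orm1 and Orm2 encode orosomucoids, plasma carriers of drugs and lipids that dampen immune responses. Both lie on chromosome 4, and their coding sequences of 621 bases differ at 63 positions, an identity of 89.86%. The 60 coding bases from 138 to 197, from transcripts of GENCODE M21 on GRCm38, are where they differ most, with 17 differing bases in capitals. They are shown because the 2 genes kept different ratios in the 4 strains.
Orm1, bases 138 to 197: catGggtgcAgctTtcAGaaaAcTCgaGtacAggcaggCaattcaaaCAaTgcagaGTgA
Orm2, bases 138 to 197: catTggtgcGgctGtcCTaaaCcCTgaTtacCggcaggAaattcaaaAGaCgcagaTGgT
Of 676 stretches of 100 bases in either transcript, 47 (6.95%) also occur in another gene of the family. A single read from these cannot be assigned by its own sequence. Read pairs and strain differences from the reference were not examined, so the counts of the 2 genes carry that uncertainty.

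Orm1 stood at 70.3, 65.8 and 96.6 CPM in C57BL/6J mice on the standard diet and at 105, 134 and 102 CPM when fed the high-fat diet. All 3 high-fat mice were higher. NZO/HiLtJ mice had 134, 133 and 129.8 CPM on the standard diet and 64.2, 50.5 and 64.6 CPM when fed the high-fat diet, so that all 3 high-fat mice were lower. CAST/EiJ mice had 169, 144 and 154 CPM on the standard diet and 0.256, 107 and 178 CPM when fed the high-fat diet. WSB/EiJ mice had 140.2, 187 and 135 CPM on the standard diet and 112, 68.6 and 111 CPM when fed the high-fat diet, again with all 3 lower. Over all libraries no Orm1 difference was a call. Without the CAST/EiJ library the high-fat diet lowered Orm1 in NZO/HiLtJ by -1.14 ± 0.21 (adjusted p = 0.00211) and in WSB/EiJ by -0.66 ± 0.21 (adjusted p = 0.0193). In C57BL/6J the difference was 0.54 ± 0.21 (adjusted p = 0.55). A fit of the 6 NZO/HiLtJ libraries alone also called the fall in that strain (adjusted p = 0.000906). A fit of the 6 WSB/EiJ libraries alone did not call the WSB/EiJ fall, -0.62 (adjusted p = 0.117). Between strains, in the fit of the 23 libraries, CAST/EiJ was above C57BL/6J by 0.68 ± 0.16 (adjusted p = 0.00164) and WSB/EiJ above C57BL/6J by 0.40 ± 0.15 (adjusted p = 0.0391). The latter averages opposite directions. Within the fit of all 24 libraries it was 0.99 (adjusted p = 0.48) in the standard groups and -0.22 (adjusted p = 0.893) in the high-fat groups. NZO/HiLtJ was below CAST/EiJ by -0.75 ± 0.16 (adjusted p = 0.000526) and below WSB/EiJ by -0.47 ± 0.15 (adjusted p = 0.0127). In NZO/HiLtJ the adipocyte sums were 20358 to 21241 CPM on the standard diet and 12379 to 15149.6 CPM on the high-fat diet, and the liver sums 152 to 1482 and 8.89 to 37.1 CPM. Their part in the Orm1 fall was not tested.

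Orm2 set NZO/HiLtJ apart at the low end. NZO/HiLtJ mice had 1.07, 0.981 and 1.51 CPM on the standard diet and 0.683, 0.644 and 0.559 CPM when fed the high-fat diet, without overlap between the diets. C57BL/6J mice had 3.05, 3.19 and 5.36 CPM on the standard diet and 4.34, 7.38 and 5.09 CPM when fed the high-fat diet. CAST/EiJ mice had 15.9, 12.8 and 13.8 CPM on the standard diet and 0.0269, 9.59 and 16.4 CPM when fed the high-fat diet. WSB/EiJ mice had 21.4, 24.1 and 16.2 CPM on the standard diet and 17.5, 9.06 and 14.3 CPM when fed the high-fat diet. Leaving aside the 0.0269 CPM library, which had 2 counts, NZO/HiLtJ was below C57BL/6J and C57BL/6J below the other 2 strains with no overlap. NZO/HiLtJ was below C57BL/6J by -2.43 ± 0.64 (adjusted p = 0.0098), below CAST/EiJ by -3.68 ± 0.67 (adjusted p = 0.000173) and below WSB/EiJ by -4.27 ± 0.69 (adjusted p = 7.5e-05). These 3 were calls in all 24 fits that left out 1 library. The first was -1.71 (adjusted p = 0.282), no call, in the standard groups alone and -3.15 (adjusted p = 0.0286) in the high-fat groups alone. WSB/EiJ was above C57BL/6J by 1.85 ± 0.62 (adjusted p = 0.0305). That call was lost in 7 of the 24 fits, without C57BL/6J standard replicate 1 or 2, C57BL/6J high-fat replicate 1 or 3, WSB/EiJ standard replicate 1 or 2, or WSB/EiJ high-fat replicate 1, with adjusted p up to 0.069, and in the standard groups alone (2.41, adjusted p = 0.0599) and the high-fat groups alone (1.28, adjusted p = 0.322). In the fit of the 23 others it was 1.86 ± 0.21 (adjusted p = 1.85e-06), and CAST/EiJ above C57BL/6J became a call at 1.56 ± 0.21 (adjusted p = 9.77e-06).

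As a share of the Orm1 and Orm2 counts of a library, Orm2 made up 0.973% ± 0.210 in NZO/HiLtJ, 4.67% ± 0.531 in C57BL/6J, 8.53% ± 0.513 in CAST/EiJ and 11.98% ± 1.12 in WSB/EiJ (SD, n = 6 mice a strain, both diets). The strains did not overlap. Each of the 6 pairs gave p = 0.00216 in a 2-sided exact permutation test, the smallest that 6 against 6 mice allow, and 0.00216 after Benjamini-Hochberg adjustment over the 6. The library low in Adipoq had 2 Orm2 counts of 21, a share of 9.52% with a 95% exact binomial interval of 1.17% to 30.4%. Without it the CAST/EiJ share was 8.34% ± 0.189 (SD, n = 5) and the exact p-values were the same. In NZO/HiLtJ the share was 0.734% to 1.15% on the standard diet and 0.858% to 1.26% on the high-fat diet, ranges that overlap, while the Orm1 levels of those diets did not. The intervals cover counting error only.

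**Figure D3:**
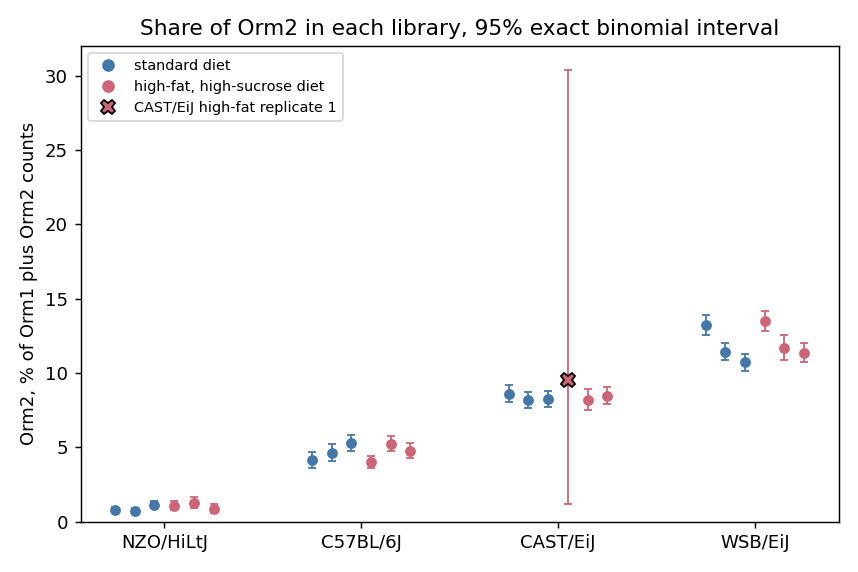
Orm2 as a percentage of the Orm1 plus Orm2 counts in each library by strain, with the 95% exact binomial interval of counting error as bars and colour for the diet. The strains form 4 separate steps, from 0.973% in NZO/HiLtJ to 11.98% in WSB/EiJ, and the wide interval belongs to the CAST/EiJ library with 21 counts of both genes.

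Cp encodes ceruloplasmin, the copper-carrying ferroxidase of plasma. C57BL/6J mice had 243, 306 and 154 CPM on the standard diet and 316, 291 and 658 CPM when fed the high-fat diet. NZO/HiLtJ mice had 239.8, 319.8 and 232 CPM on the standard diet and 211, 218 and 261 CPM when fed the high-fat diet. In both strains the diets overlapped. CAST/EiJ mice had 128, 149.8 and 159 CPM on the standard diet and 547, 76.9 and 86.3 CPM when fed the high-fat diet, where the high value is again the library low in Adipoq and the other 2 were below all 3 on the standard diet. WSB/EiJ mice had 571, 839 and 504 CPM on the standard diet and 453, 294 and 509 CPM when fed the high-fat diet. Cp was lower in CAST/EiJ than in WSB/EiJ by -1.48 ± 0.39 (adjusted p = 0.00575), a call in all 24 fits that left out 1 library. NZO/HiLtJ was below WSB/EiJ by -1.07 ± 0.38 (adjusted p = 0.0295), a call in 18 of them. It was lost without NZO/HiLtJ standard replicate 1 or 3, NZO/HiLtJ high-fat replicate 1 or 2, WSB/EiJ standard replicate 2 or WSB/EiJ high-fat replicate 3, with adjusted p up to 0.0702. Without the CAST/EiJ library CAST/EiJ was also below C57BL/6J by -1.52 ± 0.24 (adjusted p = 4.07e-05), NZO/HiLtJ was above CAST/EiJ by 1.17 ± 0.23 (adjusted p = 0.000327), and WSB/EiJ was above C57BL/6J by 0.73 ± 0.21 (adjusted p = 0.0112). This last value averages unlike diets. Within the fit of all 24 libraries it was 1.44 (adjusted p = 0.0663) in the standard groups and -0.0099 (adjusted p = 0.994) in the high-fat groups. CAST/EiJ minus WSB/EiJ was -2.13 (adjusted p = 0.00886) in the standard groups and -0.82 (adjusted p = 0.283) in the high-fat groups, which hold the library low in Adipoq. NZO/HiLtJ minus WSB/EiJ was a call in neither, at -1.27 (adjusted p = 0.0902) and -0.86 (adjusted p = 0.222). No diet difference was a call. In C57BL/6J it was 0.85 ± 0.54 (adjusted p = 1).

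Il6 encodes interleukin-6, the cytokine that induces most of the other genes in liver. It had 0 to 15 counts a library, with at least 1 in 19 of 24. The NZO/HiLtJ high-fat mice had 10, 15 and 7 counts, which is 0.137, 0.201 and 0.0979 CPM, and every other mouse had 0 to 6 counts. With the filter removed, the NZO/HiLtJ diet difference was 2.44 ± 1.03 (adjusted p = 0.327), and Il6 was a call in none of the 13 comparisons. Its unadjusted p for the NZO/HiLtJ diet difference was 0.0295.

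Counted by comparison, the high-fat diet moved few of the 7 tested genes when all libraries were used. In C57BL/6J it moved 0 of 7, with 0.00998% of all 20035 genes called, and 0 of 7 without the CAST/EiJ library, with 0.103% of 20385 genes called. In NZO/HiLtJ it moved 0 of 7 (4.89% of all genes) and then 1, Orm1, lower (11.7%). In CAST/EiJ it moved 1 of 7, Lcn2 (4.87%), and then 0 (0.304%). In WSB/EiJ it moved 1 of 7, Lcn2 (21.5%), and then 4, Lcn2 higher and Saa3, Hp and Orm1 lower (39.8%). Averaged over strains it moved 1 of 7, Lcn2 (28.9%), and then 2, Lcn2 higher and Orm1 lower by -0.35 ± 0.11 (28.9%). At an unadjusted p below 0.05 the C57BL/6J comparison held Saa3 over all libraries and Saa3, Orm1 and Cp without the CAST/EiJ library. The diet effects themselves differed between strains in 0 of 7 genes over all libraries (3.08% of all genes), with adjusted p from 0.105 for Lcn2 to 0.819 for Serpina3n. They differed without the CAST/EiJ library in 5 of 7 (17.6%): Orm1 (adjusted p = 0.00696), Saa3 (0.0126), Cp (0.0421), Lcn2 (0.0431) and Hp (0.0463). Orm2 (adjusted p = 0.0665) and Serpina3n (0.141) missed the threshold.

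**Figure D4:**
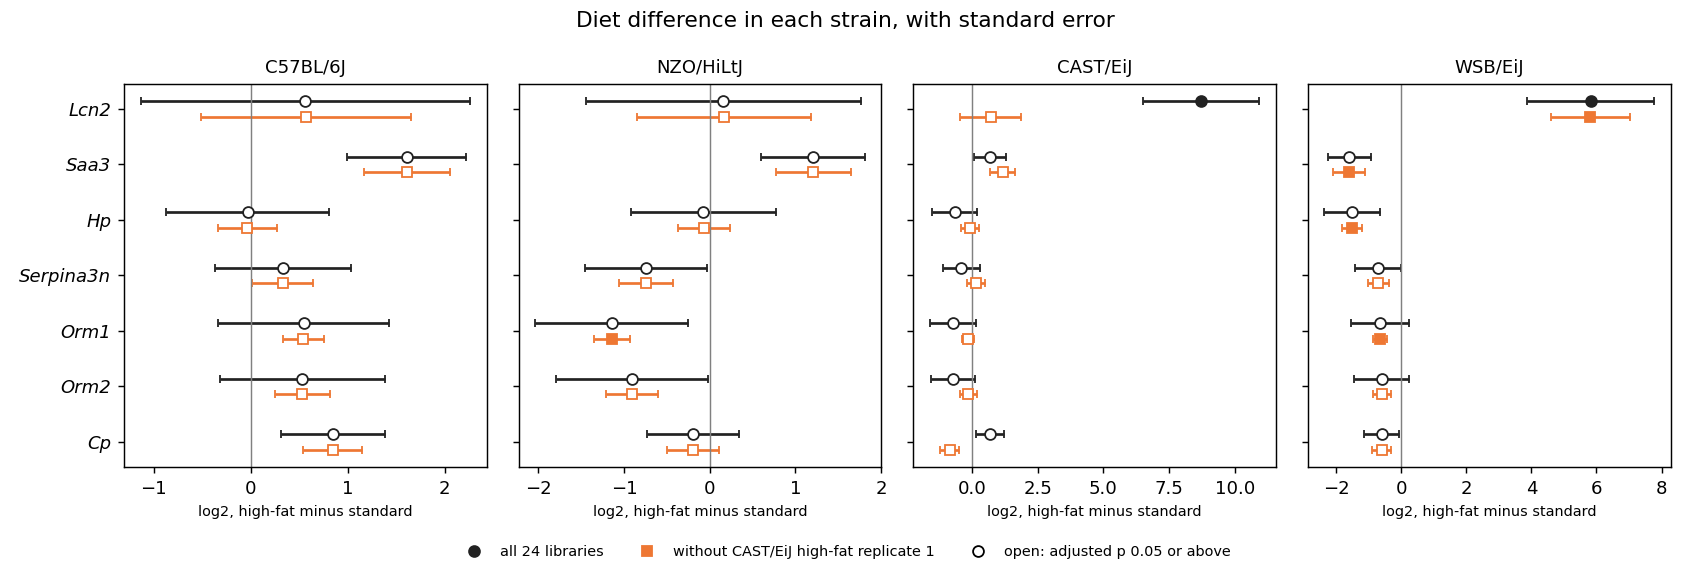
Diet difference (high-fat minus standard, log2) in each strain for the 7 tested genes, with the standard error as bars, over all 24 libraries and without CAST/EiJ high-fat replicate 1; filled symbols have an adjusted p below 0.05. Saa3 lies above 0 in C57BL/6J and NZO/HiLtJ and below 0 in WSB/EiJ, and the CAST/EiJ value of Lcn2 falls from 8.73 to 0.72.

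More calls among the 7 genes were made between strains than between diets. The strain pairs set 6 mice against 6 and the diet comparisons within a strain 3 against 3, so their calls are not like for like. Any difference between the 4 strains was called for 6 of 7 over all libraries (68.2% of all genes), Orm1 being the exception, and for 7 without the CAST/EiJ library (80% of all genes). The counts for NZO/HiLtJ against C57BL/6J were 1 of 7 (23.4%) and 3 (35%). CAST/EiJ against C57BL/6J had 1 (39%) and 5 (48.8%). WSB/EiJ against C57BL/6J had 5 (29.5%) and 7 (42.8%). NZO/HiLtJ against CAST/EiJ had 2 (51.1%) and 4 (58%). NZO/HiLtJ against WSB/EiJ had 5 (45.6%) and 7 (56.7%). CAST/EiJ against WSB/EiJ had 4 (35.5%) and 5 (49.6%). The pairs share strains, so these counts are not independent of each other, and with only 7 genes a share near that of all genes is no result about the list. Over all 24 libraries the 3 pairs with WSB/EiJ had the larger counts. Without the CAST/EiJ library, CAST/EiJ against C57BL/6J had as many as CAST/EiJ against WSB/EiJ.

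**Figure D5:**
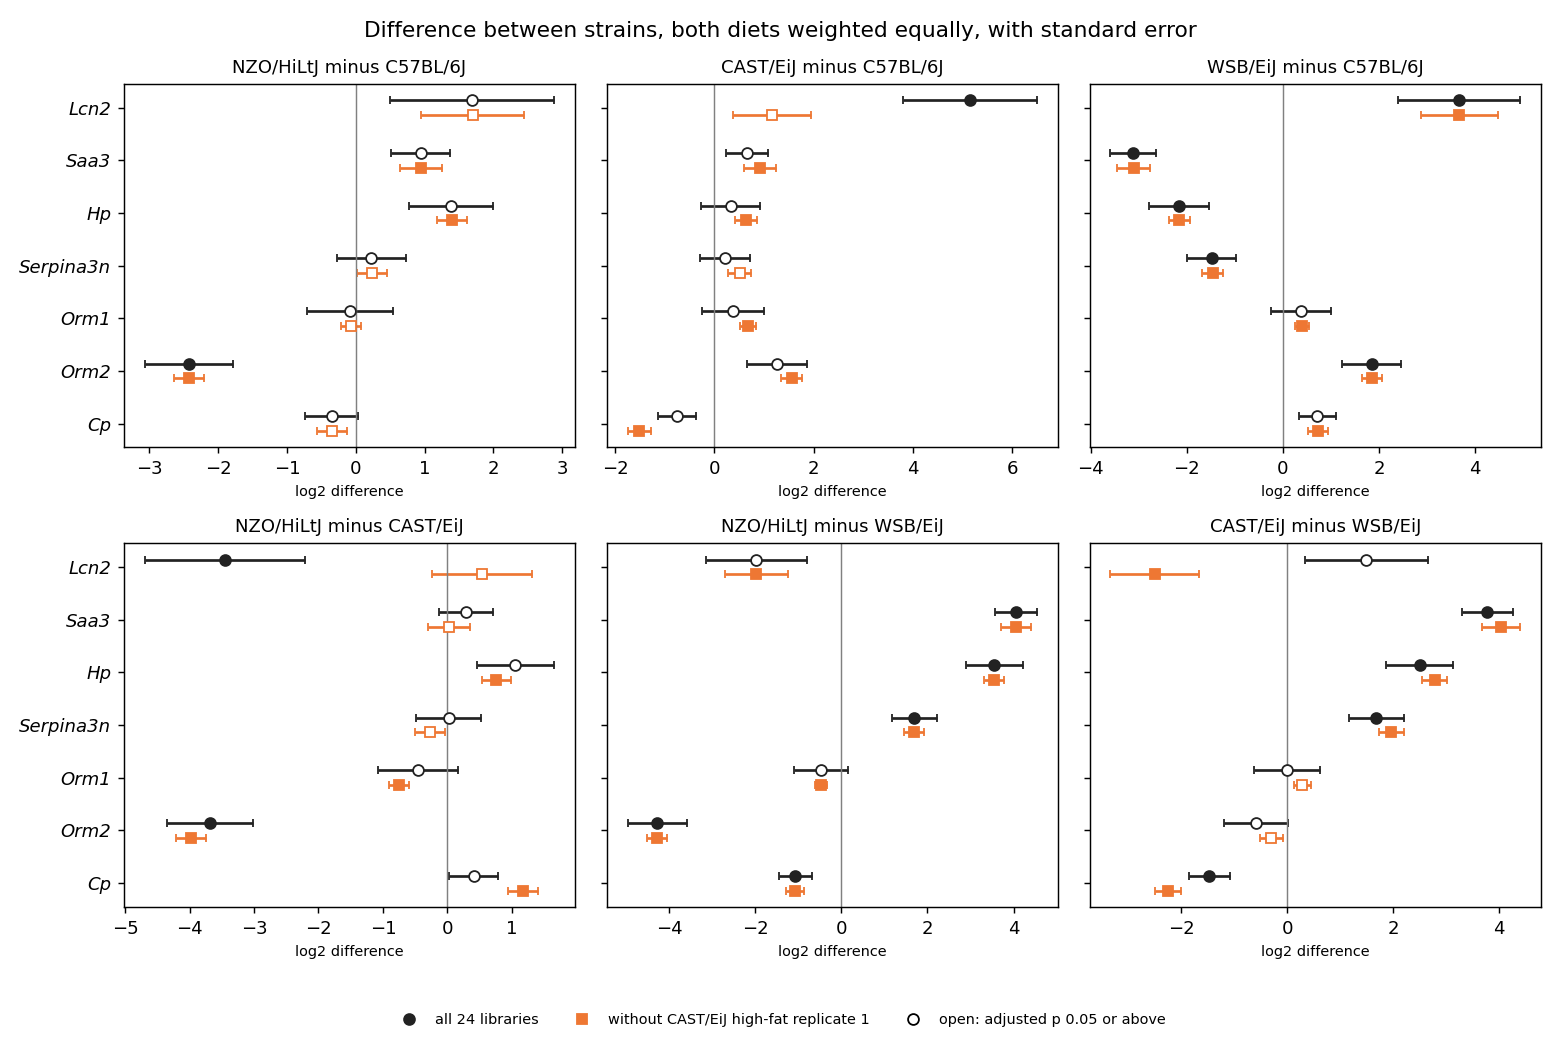
Difference between each pair of strains (log2, both diets weighted equally) for the 7 tested genes, with the standard error as bars, over all 24 libraries and without CAST/EiJ high-fat replicate 1; filled symbols have an adjusted p below 0.05. Saa3, Hp and Serpina3n lie together on the side of low WSB/EiJ, and Orm2 lies furthest towards low NZO/HiLtJ.

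Other genes of the response were read from lists drawn up by function. In NZO/HiLtJ mice 9 of 25 other plasma protein genes of the acute phase fell on the high-fat diet and none rose (median -1.52, all genes -0.0068), where 4.89% of all genes were called. Among them were Hamp, the iron hormone hepcidin, by -6.04 ± 1.23 (adjusted p = 0.00746), Serpina3k by -5.63 ± 1.06 (adjusted p = 0.00441), the fibrinogen chain Fga by -5.45 ± 1.196 (adjusted p = 0.0123) and the pentraxin Apcs by -4.80 ± 1.03 (adjusted p = 0.0104). Of 7 other lipocalin genes, 3 fell: Apom by -6.91 ± 1.38, Ambp by -5.13 ± 1.22 and C8g by -2.79 ± 0.44. Liver markers fell with them in 9 of 10 genes. Alb was 75.8 to 878 CPM in the 3 standard-diet mice and 4.24 to 19.8 CPM in the high-fat mice. The part of liver RNA in these falls was not tested. Without the CAST/EiJ library, where 11.7% of all genes were called, 11 of the 25 fell and 1 rose, Cd14, the co-receptor for endotoxin and also a macrophage marker, by 1.38 ± 0.17 (adjusted p = 4.55e-05).

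Genes that carry the inducing signals also differed between WSB/EiJ and NZO/HiLtJ. Of 19 genes of IL-1, TNF and NF-kB signalling, 13 were higher in NZO/HiLtJ and none lower (median 0.641, all genes -0.0631), where 45.6% of all genes were called. The TNF receptor Tnfrsf1b was higher by 1.78 ± 0.10, the NF-kB inhibitor Tnfaip3 by 1.57 ± 0.19, Relb by 1.08 ± 0.14 and Nfkb2 by 1.03 ± 0.12. Of 17 genes of IL-6 family and STAT3 signalling, 9 were higher and 1 lower (median 0.499). The oncostatin receptor Osmr was higher by 1.64 ± 0.15 and Stat3 by 0.70 ± 0.14, and the kinase Pim1 was lower by -1.40 ± 0.35. Of the 25 other acute-phase genes, 8 were higher and 3 lower (median 0.956). Lbp, which presents endotoxin to Cd14, was higher by 2.84 ± 0.30 and complement factor Cfb by 1.55 ± 0.19, and Orm3 was lower by -4.18 ± 0.76. Hmox1, which breaks down haem, was higher by 1.77 ± 0.22, among 4 higher and 0 lower of 15 iron, haem and copper genes. Without the CAST/EiJ library 6 were higher and 2 lower, where 56.7% of all genes were called. The IL-6 family counts, the acute-phase counts and the iron, haem and copper counts were near or below those shares and are no result about these lists. The macrophage sums given above moved with the genes named here between the 2 strains, and 9 of those 10 markers were higher in NZO/HiLtJ. Their part was not tested.

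Averaged over strains, the high-fat diet raised 7 of the 19 IL-1, TNF and NF-kB genes and lowered 1, Relb, where 28.9% of all genes were called (median 0.254, all genes 0.0501). Il1rn, the IL-1 receptor antagonist, rose by 1.32 ± 0.34 and Cebpd, a C/EBP factor, by 0.76 ± 0.17. The counts were again 7 and 1 without the CAST/EiJ library, where the share of all genes was also 28.9%. With 19 genes these counts were not far from that share and are no result about the list. Of the 17 IL-6 family genes 5 rose and none fell, Junb by 1.16 ± 0.30 among them, and 2 rose without the CAST/EiJ library. These IL-6 family counts were near or below the share of all genes and are no result about the list. In NZO/HiLtJ, where 4.89% of all genes were called, 2 of 19 IL-1, TNF and NF-kB genes rose, Tnfrsf1b by 1.12 ± 0.14 and Il1r1 by 0.74 ± 0.19, and 0 of 17 IL-6 family genes were called. Such small counts are no result about the lists. In that strain the macrophage sums were 843 to 1237 CPM on the standard diet and 2513 to 3473 CPM on the high-fat diet. In CAST/EiJ, where 4.87% of all genes were called, Lif, an IL-6 family cytokine, rose by 3.39 ± 0.81 and Il1a by 5.73 ± 1.44, among 2 of 17 and 3 of 19 that rose, with Relb lower, and no gene of either list was called without the library low in Adipoq. In WSB/EiJ, where 21.5% of all genes were called, Il11 rose by 1.68 ± 0.54 and Tnfrsf1b fell by 0.54 ± 0.14, the single calls of those lists. In the fit of the 23 others, 4 of the 17 IL-6 family genes rose and 2 fell, and 1 of the 19 rose and 1 fell. In that fit 39.8% of all genes were called. These WSB/EiJ counts were near or below the shares of all genes. Slc22a17, a receptor for lipocalin-2, rose by 2.41 ± 0.46 in WSB/EiJ (adjusted p = 0.00448), and the ferritin light chain Ftl1 fell by 1.12 ± 0.31 (adjusted p = 0.0193). In C57BL/6J none of the 5 lists held a call.

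The genes most like each member were found over the 23 libraries by Pearson correlation of log2(CPM + 0.5). The genes searched had a mean of 5 CPM or more over all 24 libraries, CAST/EiJ high-fat replicate 1 included. The libraries share strain and diet groups, so the correlations describe the groups as much as single mice. Lcn2 was most like Gng12 (r = 0.957), Adgrg7 (0.924) and A2m (0.911), the plasma protease trap alpha-2-macroglobulin. Lcn2 was 55.7 and 303 CPM in WSB/EiJ high-fat replicates 1 and 2 and at most 5.70 CPM in the others of the 23. Those high libraries weigh heavily in its correlations. On the standard diet A2m was at most 0.728 CPM. On the high-fat diet its highest levels were 20.9 CPM (WSB/EiJ) and 147 CPM (CAST/EiJ). The CAST/EiJ high-fat group includes the library left out of these correlations, which still counted in the mean by which A2m was admitted to the search. Saa3 was most like Washc2 (0.942), Ncf1 (0.917), a subunit of the phagocyte oxidase, and Mob3a (0.904). Hp was most like Slc48a1 (0.956), a haem transporter, Clec4a1 (0.936) and Hmox2 (0.935), a haem oxygenase. Serpina3n was most like Notch4 (0.968), Prr16 (0.951) and Prnd (0.951), and Cp like Ccdc69 (0.923), Ccdc47 (0.9) and Cyp2j6 (0.898). Orm1 was most like Plbd1 (0.847), Shld2 (0.834) and Pex11a (0.832), and Orm2 like Fam213a (0.943), Pdk1 (0.934) and Fads1 (0.918). Among the members, Hp and Serpina3n were closest (0.871), then Hp and Saa3 (0.822) and Saa3 and Serpina3n (0.77), while Orm1 and Orm2 stood at 0.633 and Lcn2 at -0.476 to 0.0196 with each of the other 6.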

How the data were processed

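RNA-seq libraries of poly(A) RNA (TruSeq) from 24 mice were analysed, 3 per strain and diet. The authors deposited gene-level expected counts as whole numbers. The submitters' processing notes name CASAVA 1.8.0, RSEM 1.2.1, Bowtie 0.12.8 and the builds NCBIM37 and mm9, with no role or order. Whether reads of each strain were aligned to that strain's own sequence is not given in the sources used here, which could affect strain differences. The authors also deposited the same counts as an upper-quartile signal (each count over its library's 75th percentile of nonzero counts, to within 5e-04), which was not tested.

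Counts were tested with edgeR 4.0.16 in R 4.3.3: trimmed-mean scaling, the filter on low counts (20035 genes kept, 17956 removed), 1 coefficient per group, quasi-likelihood F tests with 16 residual degrees of freedom, and Benjamini-Hochberg adjustment over all genes. The biological coefficient of variation was 40.06%, and 32.86% without CAST/EiJ high-fat replicate 1. The test was also run on simulated counts with changes set in the NZO/HiLtJ high-fat group. That simulation held no outlying library, so it does not cover the effect of CAST/EiJ high-fat replicate 1. Alternatives were other scalings, DESeq2 1.42.0, no filter, fewer libraries, single strains and single diets. Single strains were fitted on their own libraries, and single diets were compared within the fit of all 24 libraries. Replicates in a group differed by 23.26 to 1578 in chi-square per degree of freedom. The members, lists and tests were chosen with earlier results of these data known. Named genes are all members, up to 4 per direction of each list by adjusted p (part of them here), fixed markers, and the 3 genes most like each member. The lists are named in the text by function; adipocyte, liver, epithelial, macrophage and neutrophil markers were 10 each.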

Additional observations from a re-analysis of the deposited data

Results flagged for a closer look

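Without CAST/EiJ high-fat replicate 1, the diet effect differed between the 4 strains by the interaction test of edgeR for 5 genes. The adjusted p was 0.00696 for Orm1, 0.0126 for Saa3, 0.0421 for Cp, 0.0431 for Lcn2 and 0.0463 for Hp. Orm1 was higher in 3 of 3 C57BL/6J mice on the high-fat diet and lower in 3 of 3 NZO/HiLtJ and 3 of 3 WSB/EiJ mice than in any mouse of the same strain on the standard diet. Saa3 was higher in 3 of 3 C57BL/6J and 3 of 3 NZO/HiLtJ mice and lower in 3 of 3 WSB/EiJ mice. Over all 24 libraries none of these interactions passed the threshold.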

How the results depend on the processing

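No paired analysis was possible because the replicate numbers were given in accession order and pair no mice. Of the values for single genes, 469 kept their direction and side of the threshold under the alternatives other than leaving out 1 library, 26 passed only there, 24 no longer passed, 18 moved and 2 reversed. The counts that follow are of the 7 tested genes called. With DESeq2 the count was 2 for NZO/HiLtJ against C57BL/6J and 2 for the interaction of strain and diet. With no filter it was 0 for diet in CAST/EiJ and 0 for diet in WSB/EiJ. With the 6 libraries above the Epcam limit of 5 CPM removed it was 3 for diet in NZO/HiLtJ, 0 for diet in CAST/EiJ, 4 for NZO/HiLtJ against C57BL/6J, 6 for CAST/EiJ against C57BL/6J, 4 for NZO/HiLtJ against CAST/EiJ and 2 for the interaction, Orm1 and Cp. The average diet effect there again had 1, which was Saa3 in place of Lcn2. Diet in WSB/EiJ gave no value there, having no high-fat library left. With a single strain's libraries it was 4 for diet in NZO/HiLtJ, 0 in CAST/EiJ and 0 in WSB/EiJ. With the standard groups only it was 0 for NZO/HiLtJ, 0 for CAST/EiJ and 0 for WSB/EiJ against C57BL/6J, 1 for NZO/HiLtJ against CAST/EiJ, 3 for NZO/HiLtJ against WSB/EiJ and 2 for CAST/EiJ against WSB/EiJ. With the high-fat groups only it was 3 for WSB/EiJ against C57BL/6J and 2 for CAST/EiJ against WSB/EiJ.

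With each library left out in turn the count was 0 to 1 for diet in NZO/HiLtJ, 0 to 1 in CAST/EiJ, 0 to 4 in WSB/EiJ and 1 to 2 on average. It was 1 to 3 for NZO/HiLtJ, 1 to 5 for CAST/EiJ and 2 to 7 for WSB/EiJ against C57BL/6J, 1 to 4 for NZO/HiLtJ against CAST/EiJ and 0 to 5 for the interaction. Lcn2 in NZO/HiLtJ minus CAST/EiJ, -3.46 over all libraries, was 0.53 without the 6 libraries, 0.83 with the standard groups only, and -3.75 to 0.54 with 1 library left out. Lcn2 in CAST/EiJ minus WSB/EiJ was -2.51 to 2.52 with 1 left out. The cause was not tested.

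Over all genes, diet in CAST/EiJ gave 975 calls and 0 to 4778 over the alternatives, diet in NZO/HiLtJ 979 and 272 to 5967, diet in WSB/EiJ 4305 and 639 to 8104, and diet in C57BL/6J 2 and 0 to 34. The average gave 5788 and 2434 to 7803, and the interaction 618 and 129 to 3588. Between strains the largest spread was NZO/HiLtJ against C57BL/6J, 4690 and 1675 to 8409. Depth limits Saa1, Saa2 and Il6, at 15 counts a library or fewer.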
